A study of Mus musculus with 18 samples.

Results

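The glucocorticoid receptor gene *Nr3c1* and 9 genes widely used as readouts of glucocorticoid or stress hormone signalling (*Fkbp5*, *Tsc22d3*, *Klf9*, *Sgk1*, *Ddit4*, *Mt1*, *Mt2*, *Errfi1* and *Dusp1*) were followed across 3 subsets of mouse synovial macrophages. These 10 genes were chosen by symbol, after *Fkbp5* had been seen to rise with immune complexes (IC) in the same libraries. They are 10 of 24421 gene symbols in the count files, all 10 had counts, and all 10 were among the 10550 genes that passed the filter on low counts. RNA came from WT adult C57BL/6 mice. Macrophages of the synovium, the soft tissue lining the joint, were sorted into LYVE1+CX3CR1+ cells, which lacked MHCII and Ly6C by their gate, MHCII+CD11c- cells and MHCII+CD11c+ cells. Each subset had 3 libraries from untreated mice, labelled healthy or control, and 3 from mice given IC (ovalbumin bound by rabbit antibodies to ovalbumin) by intravenous injection 8 h earlier. Each library held cells pooled from 6 legs of 3 mice, so values are averages over animals, and whether untreated mice received a sham injection is not given in the sources used here. The joints were digested with collagenase at warm temperature before sorting, which all 6 groups share.

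Glucocorticoids, corticosterone in mice, are adrenal hormones released on a daily rhythm and under stress. They bind NR3C1, which waits in the cytoplasm in a complex with heat shock proteins, then enters the nucleus and binds glucocorticoid response elements, inverted repeats of a short half-site, or acts through other transcription factors. In macrophages this receptor is known for damping inflammatory gene expression and for raising scavenging and clearance genes. Some of its targets feed back on the hormone signal: FKBP5 is a co-chaperone that lowers the affinity of the receptor for hormone. Others carry out effects: TSC22D3 (GILZ) restrains inflammatory transcription factors, DUSP1 removes phosphate from MAP kinases, and ERRFI1 inhibits receptors of the EGF family. SGK1 is a kinase that controls ion transport and survival, DDIT4 (REDD1) inhibits mTORC1, and KLF9 is a transcription factor that also links hormone to clock. MT1 and MT2 are metallothioneins, small proteins that bind zinc and copper, whose genes also answer to metal through the factor MTF1 and to inflammatory cytokines. None of these genes is a readout of glucocorticoids alone.

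Promoter windows of 300 bases (250 before to 50 after an annotated transcript start, RefSeq, GRCm38.p6) were found for 9 of the 10 genes. The 3 windows below are shown because *Sgk1*, *Mt1* and *Mt2* differ between subsets and hold motifs these genes are known for. In the *Sgk1* window at chr10:21993640-21993939 (plus strand), which belongs to 1 of 6 annotated starts, capitals mark a full glucocorticoid response element (AGAACA, 3 bases of any kind, TGTTCT) at bases 62 to 76 of the window. In the windows of *Mt1* (chr8:94178839-94179138, plus strand) and *Mt2* (chr8:94172368-94172667, plus strand), capitals mark cores of metal response elements, TGCACNC or TGCGCNC on either strand.
Sgk1: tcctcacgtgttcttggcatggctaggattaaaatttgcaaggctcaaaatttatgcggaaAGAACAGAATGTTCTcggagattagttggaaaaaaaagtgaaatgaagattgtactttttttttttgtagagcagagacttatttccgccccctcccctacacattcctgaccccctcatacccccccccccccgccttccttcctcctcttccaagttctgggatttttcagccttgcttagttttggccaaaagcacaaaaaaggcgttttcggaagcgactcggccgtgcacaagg
Mt1: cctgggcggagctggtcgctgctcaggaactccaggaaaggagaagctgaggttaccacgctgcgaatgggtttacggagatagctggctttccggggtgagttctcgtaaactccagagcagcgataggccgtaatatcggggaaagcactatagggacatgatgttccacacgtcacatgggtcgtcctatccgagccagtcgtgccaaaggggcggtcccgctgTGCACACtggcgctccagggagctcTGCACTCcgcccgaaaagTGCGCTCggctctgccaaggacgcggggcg
Mt2: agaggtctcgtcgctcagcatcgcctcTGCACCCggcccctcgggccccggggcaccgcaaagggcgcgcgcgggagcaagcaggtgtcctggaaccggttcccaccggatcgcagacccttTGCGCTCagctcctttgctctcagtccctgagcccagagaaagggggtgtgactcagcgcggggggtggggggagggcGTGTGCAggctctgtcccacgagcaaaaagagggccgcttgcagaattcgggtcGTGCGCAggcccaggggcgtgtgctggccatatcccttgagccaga
Exact matches to the full element were found in 3 of 32851 promoter windows (0.00913%), and 1 of those 3 was this *Sgk1* window. The half-site AGAACA, searched on both strands and contained in the full element, was in 19% of all windows. Among the 9 genes it was found around starts of *Sgk1* and *Tsc22d3* and not in the window of *Fkbp5*. A metal response element core was in 25.7% of all windows and in windows of 5 of the 9 genes, with 3 cores for *Mt1* and 4 for *Mt2*. The cyclic AMP response element TGACGTCA was in 1.79% of windows and in those of *Dusp1* and *Errfi1*. GC boxes (GGGCGG) were in 35.7% of windows and in those of 7 of the 9 genes. A gene is counted here if any of its windows holds a match, and some genes have several windows (6 for *Sgk1*). Counts of genes therefore cannot be set against shares of windows. These are matches of letters and were not tested as binding sites, and response elements farther from a start lie outside these windows.

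**Figure D1:**
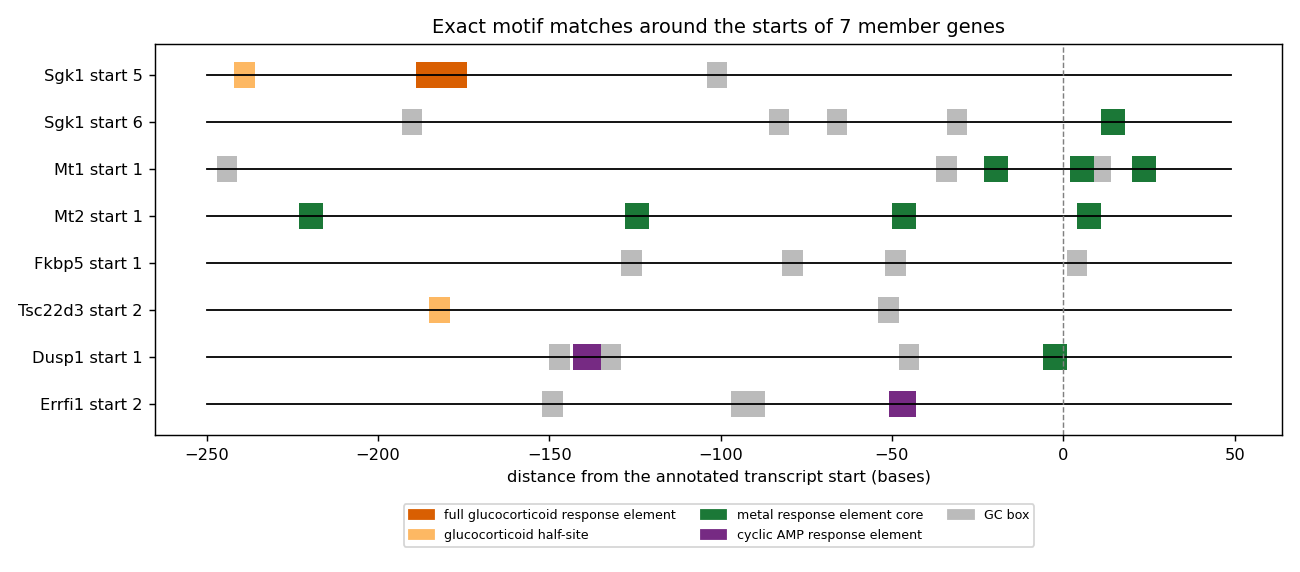
Exact motif matches in 8 promoter windows of 7 genes, by distance from the annotated transcript start in bases (dashed line); each line is 1 window and each box 1 match. The full glucocorticoid response element appears once, around the fifth *Sgk1* start, while *Mt1* and *Mt2* hold 3 and 4 metal response element cores.

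Library totals lay between 245903 and 2172358 counts (median 1526179.5), and the smallest were the first and second MHCII+CD11c- IC libraries (381217 and 245903 counts). In the second of these, 1 count is worth 3.77 CPM (counts scaled to library size), against 0.48 CPM in the library where it is worth least, so low values there are coarse. The sort markers followed the labels. The summed level of 4 MHCII genes was 38.2 to 56.5 CPM in untreated LYVE1+CX3CR1+ libraries and 19105 to 31493 CPM in untreated MHCII+ libraries, and *Itgax*, which encodes CD11c, was at 240 to 304 CPM in untreated MHCII+CD11c+ libraries and at 0 to 13.3 CPM in the other untreated ones. Transcripts of other cells also differed between libraries. The sum of 5 erythroid genes was 4.04 to 1149, 23.2 to 2832 and 109 to 1326 CPM in untreated LYVE1+CX3CR1+, MHCII+CD11c- and MHCII+CD11c+ libraries. After IC it was 0 to 37.2, 38.1 to 152 and 24.4 to 412 CPM. The groups overlapped, and all 5 genes were fitted lower with IC in every subset, where none passed. Fibroblast genes, 11 in number, summed to 65.7 to 694 CPM (median 83.4) in untreated LYVE1+CX3CR1+ libraries. The sum of 8 neutrophil genes, of 9 listed, was 19.1 to 581 CPM in untreated and 1035 to 2328 CPM in IC MHCII+CD11c+ libraries. There 3 of the 8 passed with IC, all higher: *S100a8* (log2 fold change 2.998, SE 0.66), *Mmp8* (3.37, SE 0.76) and *Csf3r* (1.52, SE 0.32). The sum was 763 to 1858 and 1480 to 4202 CPM in the MHCII+CD11c- groups, which overlapped, and 12.8 to 15.1 and 19.2 to 170 CPM in the LYVE1+CX3CR1+ groups. The sum of 5 mast cell genes was 6.11 to 214 CPM in untreated and 115 to 478 CPM in IC MHCII+CD11c- libraries, which overlapped. Of 5 monocyte genes, only *Plac8* passed with IC, as higher in MHCII+CD11c- (2.42, SE 0.57) and MHCII+CD11c+ cells (2.48, SE 0.57). In each of these subsets 4 of the 5 were fitted higher and 1 lower. The sum of the 5 in MHCII+CD11c+ libraries was 793 to 844 CPM untreated and 684 to 801 CPM after IC, which overlapped. Lymphocyte genes, 9 in number, summed to 205 to 354 CPM in MHCII+CD11c-, 83.5 to 106 CPM in MHCII+CD11c+ and at most 4.04 CPM in LYVE1+CX3CR1+ libraries. The macrophage gene *Fcgr1*, which encodes a receptor for IgG, was higher with IC in all 3 subsets (0.99, SE 0.21, 1.18, SE 0.22 and 1.25, SE 0.21 in LYVE1+CX3CR1+, MHCII+CD11c- and MHCII+CD11c+ cells). In bulk libraries, fewer cells of a type and less RNA per cell cannot be told apart.

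All levels given for single libraries are CPM scaled with TMM factors, a correction for differences in RNA composition, and 3 values in a row are those of libraries 1, 2 and 3 of a group. Differences are log2 fold changes from edgeR's quasi-likelihood fit over all 18 libraries, with their standard errors (SE) and n = 3 libraries per group. This fit does not pair libraries of different subsets, and whether they share mice is not given in the sources used here. The comparisons of IC with untreated libraries are the ones the genes were chosen from, so the values of the 10 genes in them are a description and no p is given. The counts past the threshold in these comparisons, given near the end, are a description too. The comparisons between subsets are tested, with Benjamini-Hochberg adjustment over all 10550 genes and a threshold of 0.05. For *Fkbp5* these also draw on libraries behind its rise, so its subset differences are also a description, given without p values.

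**Figure D2:**
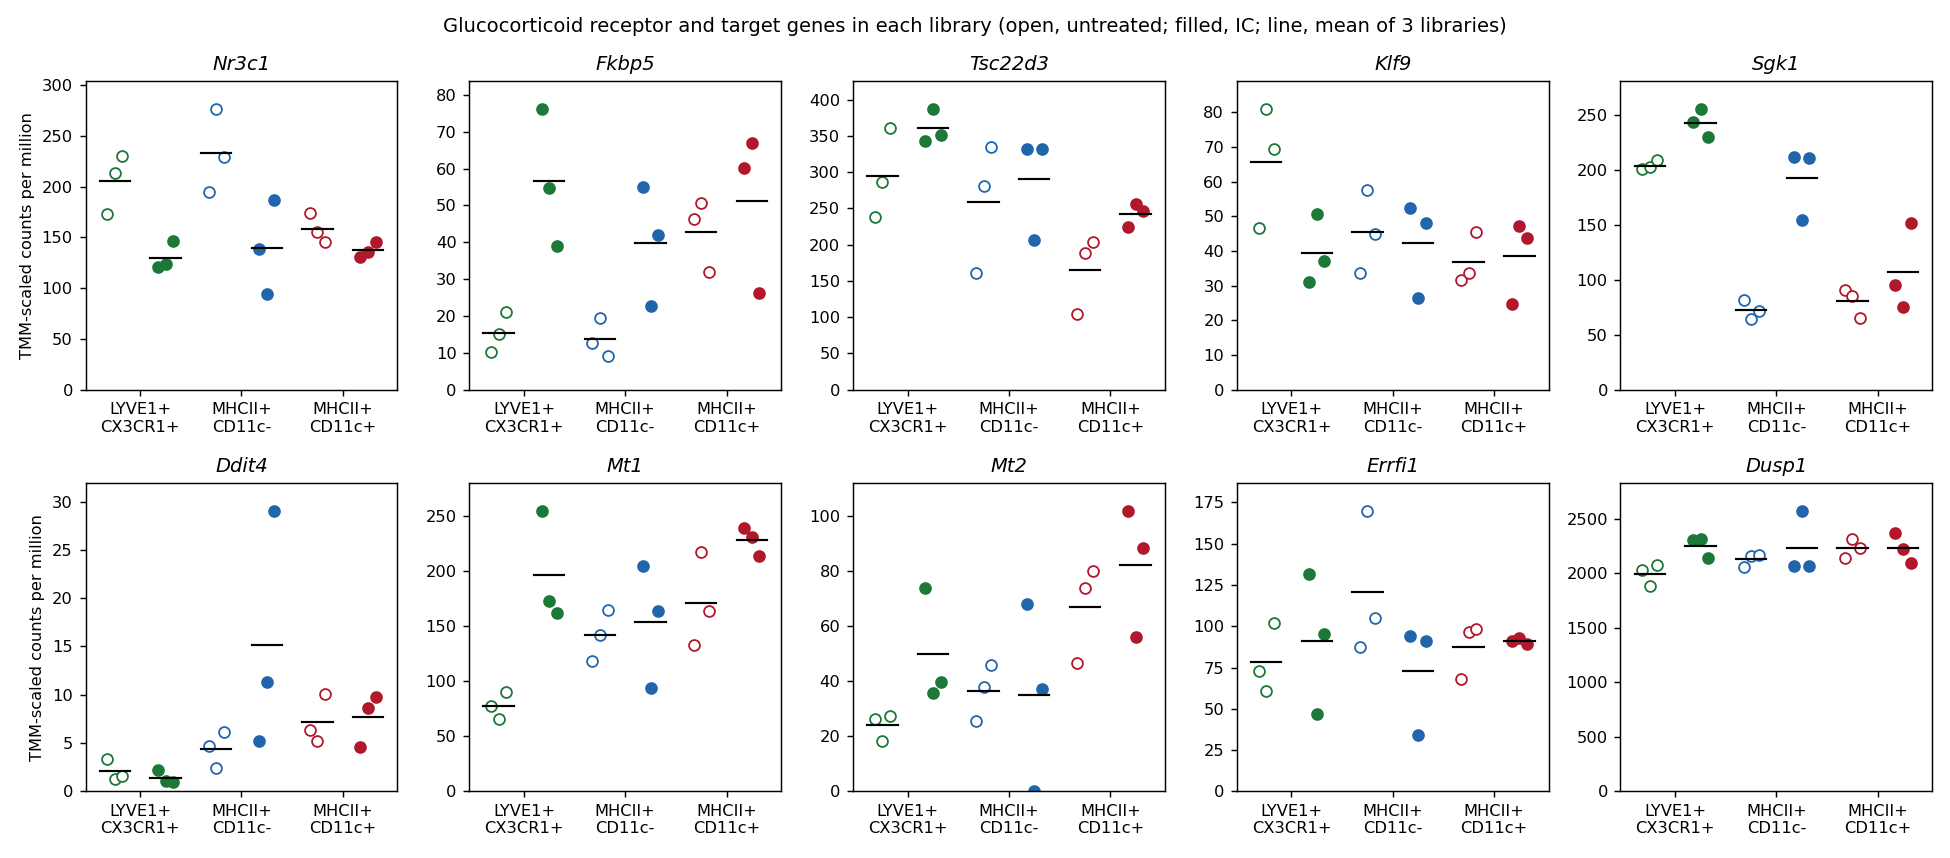
Level of the 10 genes in each of the 18 libraries, in TMM-scaled CPM on linear axes that start at 0 and differ between genes; open points are untreated and filled points IC libraries, and lines are means of 3 libraries. *Fkbp5* and *Mt1* were higher in all 3 IC libraries of LYVE1+CX3CR1+ cells than in the untreated ones, and *Sgk1* was so with a wider gap in MHCII+CD11c- cells, while *Dusp1* stayed between 1886 and 2575 CPM.

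The receptor gene *Nr3c1* was present in all 3 subsets and lay lower after IC in 2 of them. In untreated libraries it was at 194, 276 and 229 CPM in MHCII+CD11c- cells, 173, 213 and 230 CPM in LYVE1+CX3CR1+ cells, and 174, 155 and 145 CPM in MHCII+CD11c+ cells. The MHCII+CD11c+ libraries were lowest, although the first of them reached the lowest LYVE1+CX3CR1+ library. After IC it was at 139, 94.1 and 187 CPM, 121, 123 and 146 CPM, and 131, 135 and 146 CPM in the same order. The IC libraries of all subsets overlapped, and they lay below every untreated library of their own subset in LYVE1+CX3CR1+ and MHCII+CD11c- cells. The log2 fold change with IC was -0.66 (SE 0.19) in LYVE1+CX3CR1+, -0.67 (SE 0.21) in MHCII+CD11c- and -0.20 (SE 0.19) in MHCII+CD11c+ cells. With only the third MHCII+CD11c- IC library kept, the value in that subset was -0.30 (SE 0.23). Without single libraries it ran from -0.999 to -0.49. Between untreated subsets, MHCII+CD11c+ cells were lower than MHCII+CD11c- cells by 0.56 on the log2 scale (log2 fold change -0.56, SE 0.19), which missed the threshold (adjusted p = 0.117, edgeR quasi-likelihood test).

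*Fkbp5*, the co-chaperone of the receptor, was low in untreated LYVE1+CX3CR1+ and MHCII+CD11c- cells and reached the level of MHCII+CD11c+ cells after IC. LYVE1+CX3CR1+ libraries held 10.1, 15.04 and 21.0 CPM untreated and 76.1, 54.8 and 38.9 CPM after IC. MHCII+CD11c- libraries held 12.8, 19.6 and 9.19 CPM untreated and 54.9, 22.6 and 42.1 CPM after IC. In both subsets every IC library was above every untreated one, by a small margin for the second MHCII+CD11c- IC library, where the value rests on 6 counts. In MHCII+CD11c+ cells the libraries overlapped, with 46.2, 50.6 and 31.8 CPM untreated and 60.2, 66.9 and 26.2 CPM after IC. The log2 fold changes with IC were 1.85 (SE 0.37, 3.62-fold), 1.58 (SE 0.45) and 0.23 (SE 0.35) in LYVE1+CX3CR1+, MHCII+CD11c- and MHCII+CD11c+ cells. The first of these was 1.60 to 2.16 when single LYVE1+CX3CR1+ libraries were left out. The log2 fold change in MHCII+CD11c- cells was 1.35 to 1.90 without single libraries and 1.63 (SE 0.54) with just the third IC library kept.

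Before treatment the 3 subsets were not alike in *Fkbp5*. MHCII+CD11c+ cells, at a mean of 42.9 CPM (SD 9.83, n = 3), exceeded MHCII+CD11c- cells (13.8, SD 5.26) by 1.64 on the log2 scale (SE 0.41). LYVE1+CX3CR1+ cells (15.4, SD 5.45) differed from MHCII+CD11c+ cells by -1.45 (SE 0.37) and from MHCII+CD11c- cells by 0.18 (SE 0.44). After IC the means were 56.6 (SD 18.7), 39.9 (SD 16.3) and 51.1 CPM (SD 21.8) in LYVE1+CX3CR1+, MHCII+CD11c- and MHCII+CD11c+ cells, and the libraries of the 3 subsets overlapped. Differences between subsets after IC were at most 0.46 on the log2 scale, with SEs from 0.35 to 0.40.

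*Sgk1* encodes the serum- and glucocorticoid-regulated kinase, and 1 of its annotated starts has the full response element shown above. Whether that start is used in these cells was not tested. *Sgk1* differed between untreated subsets without any overlap of LYVE1+CX3CR1+ libraries with the others. Untreated LYVE1+CX3CR1+ libraries held 201, 202 and 209 CPM. Untreated MHCII+CD11c- libraries held 81.4, 64.8 and 71.5 CPM and MHCII+CD11c+ libraries 90.9, 85.5 and 65.1 CPM. The LYVE1+CX3CR1+ libraries were far above all others, and the MHCII+ subsets overlapped. LYVE1+CX3CR1+ cells exceeded MHCII+CD11c- cells by 1.49 on the log2 scale (SE 0.22, adjusted p = 3.13e-05) and MHCII+CD11c+ cells by 1.34 (SE 0.21, adjusted p = 1.86e-05), and both calls held without any 1 library. These comparisons share the LYVE1+CX3CR1+ libraries.

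After IC, *Sgk1* in MHCII+CD11c- cells was close to its level in LYVE1+CX3CR1+ cells. Its IC libraries held 212, 154 and 211 CPM in MHCII+CD11c- cells, 244, 256 and 230 CPM in LYVE1+CX3CR1+ cells, and 95.6, 75.5 and 152 CPM in MHCII+CD11c+ cells. Every MHCII+CD11c- IC library was thus far above every untreated one, every LYVE1+CX3CR1+ IC library was slightly above its untreated ones, and the third MHCII+CD11c+ IC library stood above the others of its group. The log2 fold change with IC was 1.43 (SE 0.23, 2.69-fold) in MHCII+CD11c- cells, and 1.33 to 1.54 without single libraries. It was 0.25 (SE 0.20) in LYVE1+CX3CR1+ and 0.44 (SE 0.21) in MHCII+CD11c+ cells. With only the third MHCII+CD11c- IC library kept, the rise was 1.55 (SE 0.27). Between IC subsets, LYVE1+CX3CR1+ cells exceeded MHCII+CD11c+ cells by 1.16 (SE 0.21, adjusted p = 0.000147) and did not pass against MHCII+CD11c- cells (0.32, SE 0.21, 95% interval -0.11 to 0.75, adjusted p = 0.392). MHCII+CD11c+ cells were below MHCII+CD11c- cells by 0.84 (log2 fold change -0.84, SE 0.22, adjusted p = 0.0321). That call was lost without the first or the third MHCII+CD11c- IC library, without the first or the second MHCII+CD11c+ IC library (-1.22 to -0.64, adjusted p up to 0.206), and without both small MHCII+CD11c- IC libraries (-0.95, adjusted p = 0.0621).

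Markers of the sorted populations moved beside this rise. In MHCII+CD11c- cells the sum of the 4 MHCII genes was 20175, 19105 and 19292 CPM untreated and 13312, 6789 and 12107 CPM after IC. The sum of 5 LYVE1+CX3CR1+ markers (*Lyve1*, *Cx3cr1*, *Timd4*, *Vsig4* and *Folr2*) was 1708, 1887 and 1924 CPM untreated and 3119, 1506 and 3729 CPM after IC, against 5293 to 5762 CPM in untreated LYVE1+CX3CR1+ cells. *Itgax* was at 2.33, 2.44 and 13.3 CPM untreated and at 70.6, 33.9 and 31.0 CPM after IC, and the monocyte sum at 796, 610.0 and 616 CPM untreated and at 662, 1288 and 675 CPM after IC. The MHCII genes *H2-Ab1*, *H2-Aa* and *H2-Eb1* passed as lower with IC (-0.68, -0.84 and -0.95, SE 0.16, 0.14 and 0.21) and *Itgax* as higher (2.75, SE 0.63). In MHCII+CD11c+ cells *Lyve1* (1.54, SE 0.28), *Cx3cr1* (0.85, SE 0.20) and *Vsig4* (1.17, SE 0.24) passed as higher. The first and the third MHCII+CD11c- IC libraries were above the untreated ones in the LYVE1+CX3CR1+ markers, and the second, whose *Sgk1* level of 154 CPM was also above all untreated ones, was below them. Their part in the *Sgk1* values was not tested.

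The metallothionein genes *Mt1* and *Mt2* neighbour each other on chromosome 8 (GRCm38.p6, chr8:94178883-94180327 and chr8:94172618-94173567), and both had their lowest mean in untreated LYVE1+CX3CR1+ cells. *Mt1* there was at 77.5, 65.8 and 89.9 CPM, against 119, 142 and 164 CPM in MHCII+CD11c- and 132, 217 and 163 CPM in MHCII+CD11c+ cells. No LYVE1+CX3CR1+ library reached the lowest library of another subset. The differences were -0.86 against MHCII+CD11c- (SE 0.24, adjusted p = 0.0148) and -1.13 against MHCII+CD11c+ cells (SE 0.23, adjusted p = 0.00054). The first was lost without the first or second LYVE1+CX3CR1+ or the third MHCII+CD11c- library (-0.98 to -0.73, adjusted p up to 0.0936).

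After IC *Mt1* was at 254, 172 and 161 CPM in LYVE1+CX3CR1+ cells, 204, 94.1 and 163 CPM in MHCII+CD11c- cells and 239, 230 and 213 CPM in MHCII+CD11c+ cells. The LYVE1+CX3CR1+ IC libraries were all above the untreated ones and overlapped with those of MHCII+CD11c- cells. The log2 fold change with IC was 1.33 in LYVE1+CX3CR1+ cells (SE 0.23, 2.51-fold), 0.15 (SE 0.24) in MHCII+CD11c- and 0.41 (SE 0.22) in MHCII+CD11c+ cells. In LYVE1+CX3CR1+ cells it was 1.11 to 1.46 without single libraries. After IC no subset difference in *Mt1* passed the threshold (log2 -0.21 to 0.53, adjusted p from 0.276 to 0.583).

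*Mt2* was at 26.3, 18.2 and 27.5 CPM in untreated LYVE1+CX3CR1+ cells, 25.6, 37.9 and 46.0 CPM in MHCII+CD11c- and 46.8, 73.6 and 80.1 CPM in MHCII+CD11c+ cells. LYVE1+CX3CR1+ cells were below MHCII+CD11c+ cells by 1.47 (log2 fold change -1.47, SE 0.41, adjusted p = 0.01), a call lost without the second LYVE1+CX3CR1+ library (adjusted p = 0.0601). Against MHCII+CD11c- cells the libraries overlapped and the difference did not pass (log2 fold change -0.61, SE 0.45, adjusted p = 0.462). After IC the values were 73.9, 35.8 and 39.9 CPM in LYVE1+CX3CR1+ cells, all above the untreated ones, with a log2 fold change of 1.05 (SE 0.42). In MHCII+CD11c- cells they were 68.0, 0 and 37.1 CPM, and in MHCII+CD11c+ cells 102, 55.8 and 88.3 CPM, with changes of 0.03 (SE 0.48) and 0.28 (SE 0.39). The 0 is that of the shallowest library, where it allows a level of up to 11.3 CPM, so this library was lower than the others beyond counting error. The same library was lowest of its group for 8 of the 10 genes, the exceptions being *Ddit4* and *Dusp1*. Reads that match both metallothionein genes could be shared between them, as the handling of such reads is not given in the sources used here.

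**Figure D3:**
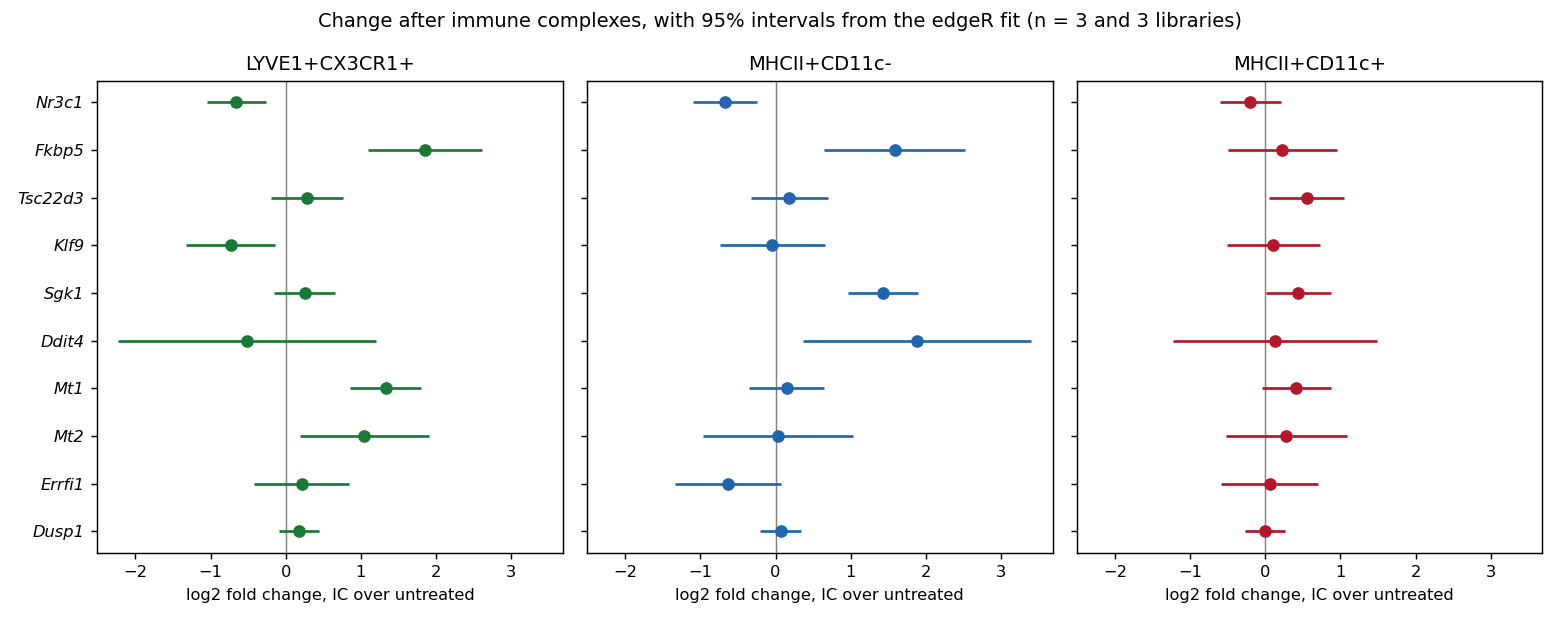
Log2 fold change of each gene, IC over untreated, with its 95% interval in the 3 subsets (n = 3 libraries per group, edgeR fit). Intervals of *Fkbp5* and *Mt1* in LYVE1+CX3CR1+ cells and of *Sgk1* and *Fkbp5* in MHCII+CD11c- cells lie well above 0 and those of *Nr3c1* in both subsets below it, while *Dusp1* lies near 0 with the narrowest interval.

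*Tsc22d3*, which encodes the anti-inflammatory protein GILZ, had its lowest mean in MHCII+CD11c+ cells, both untreated and after IC. Untreated libraries held 238, 286 and 361 CPM in LYVE1+CX3CR1+ cells, 162, 281 and 335 CPM in MHCII+CD11c- and 105, 189 and 204 CPM in MHCII+CD11c+ cells. LYVE1+CX3CR1+ cells exceeded MHCII+CD11c+ cells by 0.83 (SE 0.24, adjusted p = 0.0113), a call lost without the first MHCII+CD11c+ or the third LYVE1+CX3CR1+ library (0.59 to 1.01, adjusted p up to 0.0916). MHCII+CD11c+ against MHCII+CD11c- cells did not pass, with overlapping libraries (log2 fold change -0.65, SE 0.24, adjusted p = 0.16). After IC the levels were 343, 387 and 351 CPM, 332, 207 and 332 CPM, and 224, 256 and 247 CPM in the same order. The MHCII+CD11c+ IC libraries were all above the untreated ones, with a log2 fold change of 0.55 (SE 0.24). The changes were 0.29 (SE 0.23) in LYVE1+CX3CR1+ and 0.19 (SE 0.25) in MHCII+CD11c- cells, where libraries overlapped.

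*Klf9*, the transcription factor gene, followed the same order of means in untreated cells and was lower in mean after IC in LYVE1+CX3CR1+ cells. It was at 46.5, 80.9 and 69.5 CPM in untreated LYVE1+CX3CR1+ cells, 33.7, 57.5 and 44.9 CPM in MHCII+CD11c- and 31.5, 33.5 and 45.3 CPM in MHCII+CD11c+ cells. LYVE1+CX3CR1+ cells exceeded MHCII+CD11c+ cells by 0.83 (SE 0.29, adjusted p = 0.0391), with no overlap of the libraries. The call was lost without the first or second MHCII+CD11c+ or the second or the third LYVE1+CX3CR1+ library (0.67 to 1.03, adjusted p up to 0.185). After IC the 3 LYVE1+CX3CR1+ libraries held 31.0, 50.6 and 37.0 CPM, a log2 fold change of -0.73 (SE 0.29) with overlapping libraries. The changes were -0.04 (SE 0.34) in MHCII+CD11c- and 0.11 (SE 0.30) in MHCII+CD11c+ cells. IC libraries of the 3 subsets then lay between 24.7 and 52.3 CPM, and no subset difference passed.

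*Ddit4*, the gene of the mTORC1 inhibitor, was close to the limit of detection. It had 5, 2 and 3 counts in untreated and 4, 2 and 2 counts in IC LYVE1+CX3CR1+ libraries, against 12, 8 and 21 and 3, 11 and 16 counts in MHCII+CD11c+ libraries. MHCII+CD11c- libraries had 4, 2 and 6 counts untreated and 2, 3 and 29 counts after IC. The last of these, 29.0 CPM, stood apart from 5.23 and 11.3 CPM in the other two. After IC, LYVE1+CX3CR1+ cells were below MHCII+CD11c- cells (log2 fold change -3.49, SE 0.77, adjusted p = 0.00351) and below MHCII+CD11c+ cells (-2.43, SE 0.76, adjusted p = 0.0243). Summed over libraries, 8 counts against 34 gave a ratio of 0.0673 with an exact 95% interval from 0.0269 to 0.148, and 8 against 30 a ratio of 0.165 (0.0654 to 0.369), which cover counting error only. The first call was lost without the third MHCII+CD11c- IC library (-2.38, adjusted p = 0.142). The second was lost without the second or the third library of either group (adjusted p up to 0.102). Untreated LYVE1+CX3CR1+ cells were also lower, with 10 counts against 41 in MHCII+CD11c+ cells (log2 fold change -1.78, SE 0.73, adjusted p = 0.0857). With IC the log2 fold change was 1.88 (SE 0.74) in MHCII+CD11c- cells, with overlapping libraries, and below 1 SE in both other subsets.

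*Errfi1* and *Dusp1*, which act on receptor and MAP kinase signalling, did not pass in any comparison between subsets. *Errfi1* ranged from 33.9 to 170 CPM, and its largest change was -0.63 (SE 0.34) with IC in MHCII+CD11c- cells, where 87.2, 170 and 105 CPM untreated stood beside 94.1, 33.9 and 91.1 CPM. Its libraries overlapped in all 3 subsets, and in IC MHCII+CD11c+ cells it was at 91.0, 92.8 and 89.6 CPM. *Dusp1* was the most even of the 10. It stayed between 1886 and 2575 CPM, and its 9 log2 fold changes between -0.16 and 0.17 had SEs of 0.13, with 95% intervals that reached from -0.43 to 0.44. In LYVE1+CX3CR1+ cells its IC libraries were nonetheless all above the untreated ones (log2 fold change 0.17). *Dusp1* is also an immediate early gene that tissue digestion is known to raise. The summed level of 18 genes known to respond to dissociation was 16346 to 20311 CPM untreated and 18863 to 25970 CPM after IC in LYVE1+CX3CR1+ cells, 23257 to 25141 and 16334 to 24608 CPM in MHCII+CD11c- cells, and 16573 to 20254 and 17678 to 21862 CPM in MHCII+CD11c+ cells. Among them *Btg2*, an antiproliferative gene, passed as lower with IC in MHCII+CD11c- (-0.70, SE 0.16) and MHCII+CD11c+ cells (-0.83, SE 0.16). In MHCII+CD11c- cells 14 of the 18 were fitted lower with IC and 4 higher. Without overlap of libraries, 10 lay lower and 3 higher there, beside 14.2% of all genes in either direction. Fitted lower were 5 of the 18 in LYVE1+CX3CR1+ and 11 in MHCII+CD11c+ cells. The part of digestion in the *Dusp1* level was not tested.

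Per kilobase of exon (GENCODE vM21, GRCm38), the median level over the 18 libraries was 650 CPM for *Dusp1*, 131 for *Mt1*, 73.0 for *Mt2* and 61.8 for *Tsc22d3*. It was 31.2 for *Sgk1*, 25.7 for *Errfi1*, 19.6 for *Nr3c1*, 9.37 for *Klf9*, 3.73 for *Fkbp5* and 2.81 for *Ddit4*. *Fkbp5*, the gene that led to the choice of the list, was thus among its least abundant transcripts, whereas *Dusp1* exceeded the next gene several times over. The ranges of neighbouring genes overlapped throughout below *Dusp1*.

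**Figure D4:**
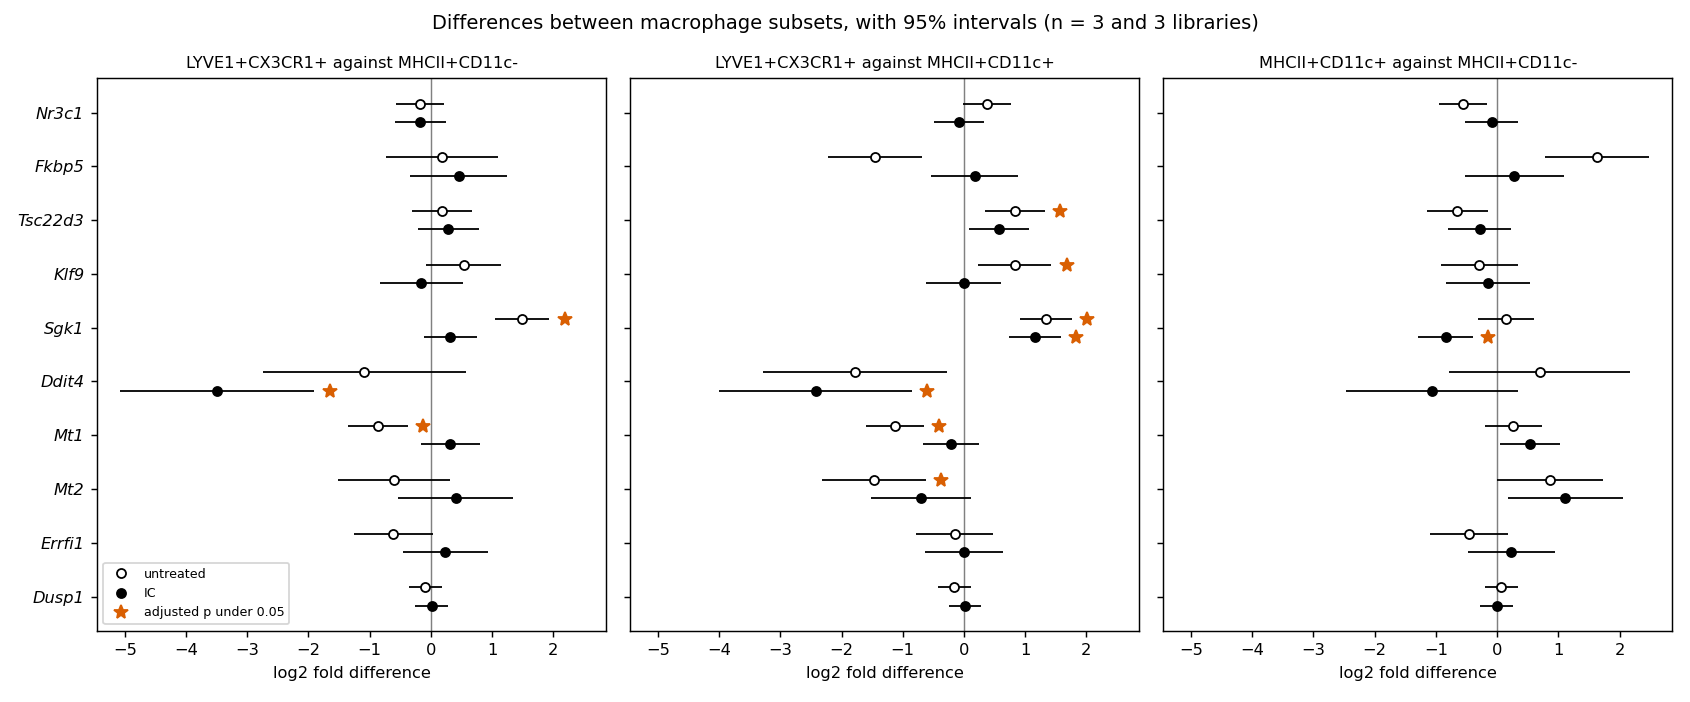
Log2 fold difference between subsets for each gene, untreated (open) and after IC (filled), with 95% intervals (n = 3 libraries per group); stars mark an adjusted p under 0.05 in edgeR's test over all genes, and *Fkbp5* carries none because its subset differences are a description. For LYVE1+CX3CR1+ cells, *Mt1* against both MHCII+ subsets and *Mt2* against MHCII+CD11c+ cells alone are starred in untreated and not in IC cells. The same holds for *Sgk1* against MHCII+CD11c- cells, while *Sgk1* against MHCII+CD11c+ cells is starred in both.

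Between untreated subsets, 6 of the 10 genes passed the threshold in LYVE1+CX3CR1+ against MHCII+CD11c+ cells, beside 21.8% of all genes tested. *Tsc22d3*, *Klf9* and *Sgk1* were higher and *Mt1* and *Mt2* lower in LYVE1+CX3CR1+ cells, *Fkbp5* is counted among the lower genes as a description, and the count was 4 to 6 without single libraries. In LYVE1+CX3CR1+ against MHCII+CD11c- cells 2 passed (11.4% of all genes), and in MHCII+CD11c+ against MHCII+CD11c- cells 1 of 10 lay past it (3.49% of all genes), which was *Fkbp5* and is a description. After IC the counts were 2 of 10 (19.7% of all genes), 1 of 10 (9.77%) and 1 of 10 (2.84%) in the same order, and all were calls of *Sgk1* or *Ddit4*. These comparisons share libraries, and a smaller count after IC is not a test of convergence between subsets.

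As a description, 2 of the 10 genes (*Fkbp5* and *Mt1*) lay past the threshold with IC in LYVE1+CX3CR1+ cells (0.464% of all genes tested), 1 (*Sgk1*) in MHCII+CD11c- cells (1.06%) and 0 in MHCII+CD11c+ cells (0.673%). For that 0, edgeR had 2 genes at an unadjusted p under 0.05 and the Wald test of DESeq2 had 0 calls. In LYVE1+CX3CR1+ cells the libraries of the groups did not overlap for 6 of the 10 genes, with *Fkbp5*, *Sgk1*, *Mt1*, *Mt2* and *Dusp1* higher and *Nr3c1* lower, beside 19.1% of all genes. The number was 3 in MHCII+CD11c- cells, with 2 higher and 1 lower (14.2% of all genes), and 1 in MHCII+CD11c+ cells (18.5%). Since the list was chosen from these comparisons, nothing is read from these counts. The median log2 fold change of the 10 genes was 0.23, 0.11 and 0.18 in LYVE1+CX3CR1+, MHCII+CD11c- and MHCII+CD11c+ cells, beside -0.02, -0.01 and -0.01 over all genes tested.

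The difference in IC response between subsets passed for 0 of the 10 genes in each of 3 comparisons in edgeR, where 0%, 0.00948% and 0.00948% of all genes passed (LYVE1+CX3CR1+ against MHCII+CD11c-, LYVE1+CX3CR1+ against MHCII+CD11c+ and MHCII+CD11c+ against MHCII+CD11c-). At an unadjusted p under 0.05 the counts were 3, 2 and 2, and the Wald test of DESeq2 called 1 (*Sgk1*), 0 and 0. The response of *Fkbp5* in LYVE1+CX3CR1+ cells exceeded that in MHCII+CD11c+ cells by 1.63 on the log2 scale (SE 0.51) and that in MHCII+CD11c- cells by 0.27 (SE 0.59). The response of *Sgk1* in LYVE1+CX3CR1+ cells was below that in MHCII+CD11c- cells by 1.17 (log2 difference -1.17, SE 0.30), and that of *Mt1* was above it by 1.18 (SE 0.33). In edgeR a difference between subsets in response was therefore not shown for any of the 10 genes.

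Other genes of the pathway were taken from lists written with earlier results of these data known, and the counts for them describe those lists. Of 35 further genes known to respond to glucocorticoids, 33 were tested, and with IC 0 passed in LYVE1+CX3CR1+ cells, 1 fell in MHCII+CD11c- cells and 1 rose in MHCII+CD11c+ cells. Of all genes tested, 0.464%, 1.06% and 0.673% passed in the same order. At such shares a count of 0 or 1 in a short list is not read further, here and for the lists below. The gene that fell was *Irs2*, an insulin receptor substrate, with a log2 fold change of -0.98 (SE 0.21). The gene that rose was *Lcn2*, an iron-binding acute phase protein abundant in neutrophils, with 3.54 (SE 0.71). Levels of *Lcn2* in the MHCII+CD11c+ groups moved with the neutrophil sum given above, and the part of neutrophil RNA was not tested. The median log2 fold change of the list was -0.01 in MHCII+CD11c- cells and -0.00 in MHCII+CD11c+ cells, and 0.00 in LYVE1+CX3CR1+ cells over the 31 genes left without *Lcn2* and *Il1r2*, which had no count in any untreated LYVE1+CX3CR1+ library. The middle 50% of the 31 genes lay between -0.29 and 0.35. *Per1*, a clock gene with a direct hormone response, changed by -0.53 (SE 0.19), -0.20 (SE 0.21) and -0.32 (SE 0.19) in LYVE1+CX3CR1+, MHCII+CD11c- and MHCII+CD11c+ cells and passed in none.

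**Figure D5:**
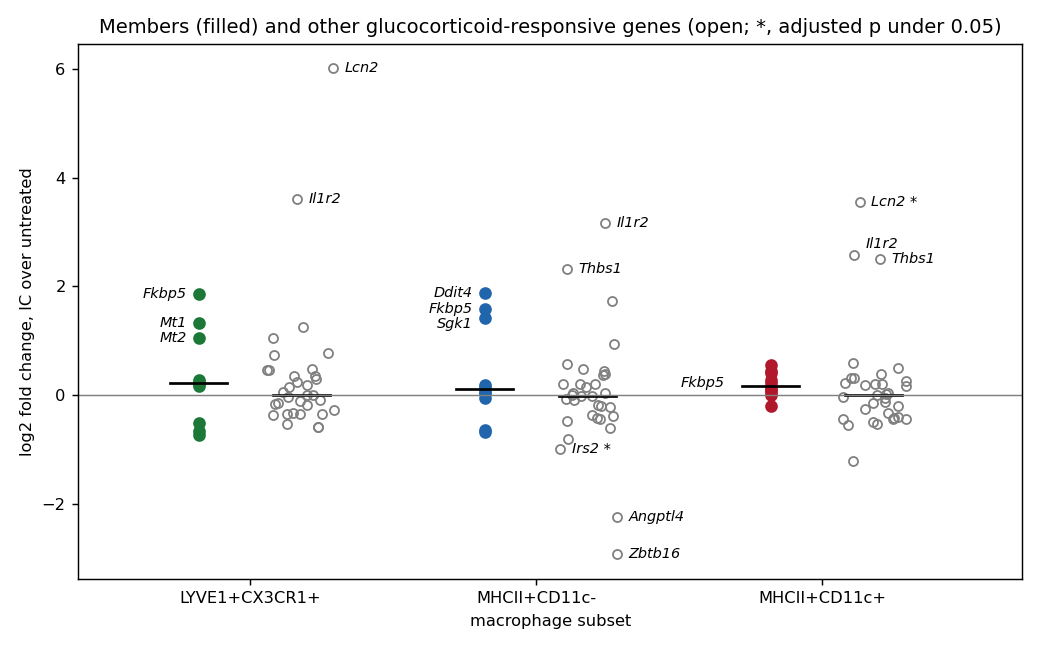
Log2 fold change with IC of the 10 genes (filled) and of 33 other glucocorticoid-responsive genes (open) in each subset, with medians as lines and a star at an open point whose adjusted p is under 0.05; open points are spread sideways at random. Medians lie within 0.25 of 0 in all 3 subsets, and *Lcn2* and *Il1r2* in LYVE1+CX3CR1+ cells are fitted against untreated libraries that all hold 0 counts, so their height is not a bound.

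Between subsets, genes of the same list did pass. In untreated LYVE1+CX3CR1+ against MHCII+CD11c+ cells 5 were higher and 6 lower (21.8% of all genes passed), and in LYVE1+CX3CR1+ against MHCII+CD11c- cells 2 were higher and 4 lower (11.4%). Over all comparisons between subsets, the 4 genes of the list with the smallest adjusted p were all higher in LYVE1+CX3CR1+ cells. *Tgfbr1*, a receptor of TGF-beta, was higher by 2.28 (SE 0.21, adjusted p = 5.88e-09) in the first comparison, and *Rhob*, a small GTPase, by 1.25 (SE 0.15, adjusted p = 6.3e-07). *Rhob* is also in the list of genes known to respond to dissociation. *Stom*, a membrane scaffold protein gene, was higher by 0.99 (SE 0.15, adjusted p = 2.05e-05). *Mertk*, a receptor for apoptotic cells, was higher by 0.91 (SE 0.24, adjusted p = 0.00589), and it is also a macrophage marker. Among the lower genes, *Irs2* differed by -0.86 (SE 0.20, adjusted p = 0.00174) and *Gadd45b*, a stress response gene, by -1.04 (SE 0.31, adjusted p = 0.0165). All were tested with edgeR's quasi-likelihood test.

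The machinery around the receptor was tested as well. Of 21 chaperones and cofactors, *Hspa8*, a constitutive heat shock protein, rose with IC in LYVE1+CX3CR1+ cells (0.72, SE 0.15) and *Hsp90ab1*, an HSP90 isoform that holds the receptor, in MHCII+CD11c+ cells (0.68, SE 0.15). None passed in MHCII+CD11c- cells. *Hsp90aa1*, the stress-inducible isoform, was lower in untreated LYVE1+CX3CR1+ than in MHCII+CD11c+ cells by 0.82 (log2 fold change -0.82, SE 0.17, adjusted p = 6e-04). Of 9 genes for ligand supply and other steroid receptors, 5 were tested and none passed with IC. *Abcb1b*, an efflux pump that exports steroids, was higher in untreated LYVE1+CX3CR1+ than in MHCII+CD11c+ cells (1.17, SE 0.32, adjusted p = 0.00878). *Hsd11b1*, the enzyme that regenerates active corticosterone, did not pass the filter and had at most 10 counts in any library, and *Hsd11b2*, which inactivates it, had 0 counts in all 18.

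Of 14 metal homeostasis genes tested beside the metallothioneins, *Hmox1*, the heme-degrading enzyme, rose with IC in MHCII+CD11c+ cells (0.70, SE 0.17), and none passed in the other subsets. The transferrin receptor gene *Tfrc* was lower in untreated LYVE1+CX3CR1+ cells than in MHCII+CD11c- cells by 1.47 (log2 fold change -1.47, SE 0.26, adjusted p = 0.000282). *Slc39a14*, a zinc and iron importer, was higher in the same comparison (1.46, SE 0.35, adjusted p = 0.00641), and *Fth1*, the ferritin heavy chain gene, was higher against MHCII+CD11c+ cells (0.64, SE 0.13, adjusted p = 0.00059). Of 13 tested Kruppel-like factors and TSC22 relatives of *Klf9* and *Tsc22d3*, none passed with IC. In untreated LYVE1+CX3CR1+ against MHCII+CD11c+ cells 5 were higher and 0 lower, where 21.8% of all genes tested passed. Among the 5 were *Klf2* (1.08, SE 0.14, adjusted p = 2.85e-06), *Klf12* (6.74 to 17.2 against 0 to 0.525 CPM, adjusted p = 0.000374) and *Klf4* (0.79, SE 0.24, adjusted p = 0.0179), which share the direction of *Klf9*. Of 14 phosphatases and feedback inhibitors tested beside *Dusp1* and *Errfi1*, 15 mTOR and stress response genes beside *Ddit4* and 10 kinases and substrates around *Sgk1*, none passed with IC in any subset. In contrast to the even *Dusp1*, *Dusp5* was lower (log2 fold change -2.64, SE 0.28, adjusted p = 7.26e-08) and *Dusp6* higher (1.44, SE 0.25, adjusted p = 7.74e-05) in untreated LYVE1+CX3CR1+ than in MHCII+CD11c+ cells. *Dusp2* was lower in IC LYVE1+CX3CR1+ than in MHCII+CD11c- cells (log2 fold change -2.56, SE 0.29, adjusted p = 1.12e-06).

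Clock genes were listed because glucocorticoids, *Klf9* and *Per1* are tied to the time of day. Of 15 tested, *Nr1d1*, the clock repressor REV-ERB alpha, fell with IC in LYVE1+CX3CR1+ cells (log2 fold change -2.98, SE 0.48), from 74.8 to 78.4 CPM untreated to 8.64 to 10.7 CPM. In MHCII+CD11c+ cells it was at 10.5 to 24.6 and 7.08 to 9.14 CPM, and in MHCII+CD11c- cells at 15.1 to 43.9 and 0 to 20.0 CPM. *Per2*, which the hormone also raises, changed by 1.14 (SE 0.28), 0.46 (SE 0.31) and 0.97 (SE 0.30) in LYVE1+CX3CR1+, MHCII+CD11c- and MHCII+CD11c+ cells and passed in none. *Per2* and *Per1* were singled out after their values were seen. The hour at which the joints were taken is not given in the sources used here, so time of day and IC cannot be told apart, and its part in the values of the 10 genes was not tested.

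Over the 18 libraries, the genes whose log2 CPM was most like that of *Fkbp5* were *Hyou1* (Pearson's r 0.87), *Eftud2* (0.86), *Msrb1* (0.84), *Psmc1* (0.82) and *Hspe1* (0.81). After the mean of each subset was removed, the 5 most alike included *Hyou1* (0.91), *Fam213b* (0.89), *Ucp2* (0.87) and *Msrb1* (0.83). *Hyou1* encodes a chaperone of the endoplasmic reticulum and *Hspe1* one of mitochondria. Among the 45 pairs of the 10 genes, with subset means kept, *Fkbp5* and *Mt1* were most alike (r 0.73) and *Klf9* and *Dusp1* least (-0.70). On that scale *Nr3c1* and *Fkbp5* had an r of -0.59. With subset means removed, *Mt2* and *Errfi1* were most alike (0.77) and *Nr3c1* and *Dusp1* least (-0.69), and *Fkbp5* and *Mt1* had 0.72. These values describe libraries that share subset, treatment and depth.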

How the data were processed

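RNA of 3 sorted synovial macrophage subsets, untreated and after IC, was measured in 18 bulk libraries made with a stranded total RNA kit. The authors used Trim Galore for trimming, HISAT2 for alignment to mm10 (GRCm38) and featureCounts for counting, and deposited raw counts for each gene symbol. Versions, annotation, strand setting and the treatment of duplicates or of reads with several matches are not given in the sources used here. Counts are therefore uncertain for genes that overlap, lie antisense or have near-identical copies. A combined table held the same counts and entered no fit. Groups came from the sample labels.

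From these counts, TMM factors, TMM-scaled CPM, log2 CPM (prior count 2) and edgeR 4.0.16 quasi-likelihood tests (R 4.3.3) were computed. The filterByExpr function (minimum count 10, minimum total 15) kept 10550 genes. One fit of 6 groups gave 12 comparisons, each adjusted over all genes (Benjamini-Hochberg, threshold 0.05). The SE is the size of the log2 fold change divided by the square root of F, and intervals are 95%. Exact intervals of count ratios and floors (3 counts) cover counting error only. Library totals of 245903 to 2172358 counts limit low genes.

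The 10 genes and all other lists were chosen with earlier results of these data known. Named are the 10 genes and, from other lists, genes past the threshold with IC and, for pathway lists, up to 4 genes with the smallest adjusted p between subsets. In addition, the 5 genes most like *Fkbp5* are named on each scale, except 1 that is not reported here. Genes named outside this rule were chosen after their values were seen (*Per1*, *Per2*, *Il1r2*, *Gadd45b*, *Hsd11b1*, *Hsd11b2*). Alternatives were DESeq2 1.42.0 size factors and Wald test, 2 other filters, a fit to the libraries compared, replicate blocks, 1 surrogate variable (sva 3.50.0) and leaving out single libraries, and, chosen after the data were seen, leaving out both shallow libraries. Promoter windows and coordinates came from RefSeq (GRCm38.p6) and exon lengths from GENCODE vM21.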

Additional observations from a re-analysis of the deposited data

How the results depend on the processing

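The numbers were not taken to pair the libraries, since not every correlation was over 0.1, a rule that cannot exclude shared mice. Deviations from group means correlated at a median of 0.036 between libraries with the same number and treatment (-0.0455 to 0.132, all but the lowest positive). With different numbers and the same treatment the median was -0.0247. With a replicate block over all libraries, 2, 1 and 0 of the 10 genes passed with IC in LYVE1+CX3CR1+, MHCII+CD11c- and MHCII+CD11c+ cells, as without it, and 3 in place of 2 passed in IC LYVE1+CX3CR1+ against MHCII+CD11c+ cells. With a replicate block within treatment, 2 in place of 1 passed in untreated MHCII+CD11c+ against MHCII+CD11c- cells.

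All 215 refits of the 16 called values kept their sign and 182 kept the call. Among 104 values that were not called, 95 of 1586 refits changed sign, in 41 values of at most 1.56 SE, and 20 became calls. Moves of the counts of the 10 genes that passed included the following. With IC in MHCII+CD11c- cells (1), the Wald test of DESeq2 and no filter on low counts each gave 2. With IC in LYVE1+CX3CR1+ cells (2), the Wald test gave 3 and a fit to the libraries compared gave 4. A minimum of 10 counts in every library, which left 5 of the 10 genes, gave 1. In that comparison *Nr3c1*, not called in the main fit, passed in 3 of 7 alternatives and *Mt2* in 2 of 6. Not every setting with more calls is therefore named here. In untreated MHCII+CD11c+ against MHCII+CD11c- cells (1), the Wald test, no filter and 1 surrogate variable each gave 2, and the minimum of 10 counts gave 0. In IC MHCII+CD11c+ against MHCII+CD11c- cells (1), no filter gave 2, and a fit to the libraries compared and leaving out both small MHCII+CD11c- IC libraries gave 0. In LYVE1+CX3CR1+ against MHCII+CD11c+ cells the minimum of 10 counts gave 3 of 6 untreated and 1 of 2 after IC. In IC LYVE1+CX3CR1+ against MHCII+CD11c- cells (1), that minimum and the fit to the libraries compared gave 0, since *Ddit4* then fell below the filter. For the IC response of LYVE1+CX3CR1+ against MHCII+CD11c- cells (0), the Wald test gave 1. Except for the filters, the cause was not tested.

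Without single libraries, the counts with IC ranged from 0 to 2 (LYVE1+CX3CR1+), from 1 to 2 (MHCII+CD11c-) and stayed at 0 (MHCII+CD11c+). In untreated cells they were 1 to 2 for LYVE1+CX3CR1+ against MHCII+CD11c-, 4 to 6 against MHCII+CD11c+ and 0 to 1 between the MHCII+ subsets. After IC they were 0 to 1, 1 to 2 and 0 to 1 in the same order. Differences in IC response stayed at 0.

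Counts over all genes moved more. With IC they were 49 in LYVE1+CX3CR1+ (49 to 272 over alternatives, 13 to 53 without single libraries), 112 (19 to 337, 52 to 182) in MHCII+CD11c- and 71 (62 to 250, 14 to 63) for MHCII+CD11c+ cells. Between untreated subsets they were 1207 (750 to 1380), 2303 (1291 to 2839) and 368 (312 to 578, 187 to 409 without single libraries), and after IC 1031 (435 to 1217, 609 to 1045), 2081 (1182 to 2413) and 300 (100 to 465, 167 to 309). Differences in IC response were 0, 1 and 1, and up to 20, 27 and 29 over alternatives.

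The 3 libraries of each group, with 245903 to 2172358 counts, limit low genes such as *Ddit4* and, in MHCII+CD11c- cells after IC, *Fkbp5* and *Mt2*. Where 1 library of a group was left, it was assumed to vary like the other groups. Pools of mice hide the spread between animals.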
